A study of Homo sapiens with 16 samples.

Results

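The 43 genes described here encode the machinery that builds the autophagosome, the conjugation enzymes and ATG8 proteins that coat it, the receptors that load cargo into it, and the factors that fuse it with the lysosome. They were taken as a fixed list of symbols, and all 43 were found among the 19775 genes of the array table. Each gene is represented by the probe set (a group of short DNA probes against the 3′ end of a transcript) with the highest mean over the 16 arrays. The list holds 5 genes of the initiation kinase complex, 7 of the lipid kinase complexes, 9 for membrane supply and lipid transfer, 10 conjugation enzymes, 4 ATG8 proteins, 5 cargo receptors and 3 fusion factors.

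The cells were MIA PaCa-2, an established human pancreatic carcinoma line, grown as a bulk culture. PP242, a compound that blocks the ATP site of the kinase mTOR, was given at 2.5 µM for 12 hours, and the control cultures received the solvent DMSO for 12 hours. From each treatment, polysome RNA (pooled sucrose gradient fractions in which an mRNA carries more than 3 ribosomes) and cytosolic RNA were measured, which gives 4 groups of 4 arrays: PP242 polysome, vehicle polysome, PP242 cytosolic and vehicle cytosolic. All values are log2 intensities after RMA summarization. The labels number the replicates 1 to 4 but do not say whether they were separate cultures, so the p-values measure the spread between these samples, which may be technical. In bulk RNA, fewer cells expressing a gene and less of its RNA per cell cannot be told apart.

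Macroautophagy starts when the ULK kinase complex is released from mTOR complex 1, which phosphorylates ULK1 and ATG13 in fed cells. The ULK complex then activates a lipid kinase complex built on PIK3C3 and BECN1, whose product, phosphatidylinositol 3-phosphate, recruits WIPI proteins and lipid transfer proteins to the growing membrane. A pair of ubiquitin-like conjugation systems attaches ATG8 proteins such as LC3 and GABARAP to that membrane, and receptors such as SQSTM1 bind ATG8 proteins on one side and ubiquitin-tagged cargo on the other. mTOR complex 1 also holds TFEB and TFE3, transcription factors that bind CACGTG elements (the E-box core) in lysosomal and autophagy genes, outside the nucleus. The arrays measure mRNA of these genes and do not measure autophagic flux.

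Within each RNA pool the effect of PP242 is the mean of the 4 PP242 arrays minus the mean of the 4 vehicle arrays, so it is read against all other mRNAs in the same pool, and a loss from polysomes common to every mRNA would not be seen. Effects are given as log2 differences ± standard error from limma, and a gene is said to have risen or fallen when its p, adjusted by Benjamini-Hochberg over all 19775 genes, was under 0.05. The fit takes the spread of a gene over all 16 arrays, so its standard error is the same in both pools. Arrays within a group correlated at 0.979 to 0.998. The median SD of a gene was 0.245 among the PP242 cytosolic arrays, against 0.122 among the vehicle cytosolic arrays, and it was 0.147 among the PP242 polysome arrays, against 0.159 among the vehicle polysome arrays. The cytosolic tests thus use a spread shared with quieter groups. With the cytosolic arrays fitted alone, the cytosolic calls given below for ULK1, WIPI2, ATG4C, ATG5 and GABARAPL1 were lost. Among the other autophagy genes, those of RTN3, PRKAA1 and RAB7A were lost as well. PP242 cytosolic arrays 2 and 4 had the lowest array weights, 0.36 and 0.252, and cytosolic calls that are lost without them are marked below. Markers of the carcinoma line were present: KRT8, KRT18, KRT19, KRT7 and VIM averaged 6.33 to 14.18 over the 16 arrays, and KRT18 and KRT19 rose in both pools. Markers of leukocytes (4 of 5 measured), endothelium (4 of 4) and normal pancreas (4 of 5) averaged 2.72 to 5.84, below the median level of all genes, 5.91, and none of them was called in either pool. Of 6 fibroblast markers, COL1A2 was high at 11.54. COL1A1 (6.95), COL3A1 (6.77) and PDGFRB (6.10) also lay above the median level of all genes, and DCN (5.18) and LUM (3.27) below it. COL1A2 and COL3A1 fell in both pools. The mean of that list was 6.42 to 6.61 on PP242 polysome arrays, against 6.74 to 6.96 on vehicle polysome arrays, and 6.33 to 6.53 on PP242 cytosolic arrays, against 6.62 to 6.83 on vehicle cytosolic arrays. The part of these markers in the results below was not tested.

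PP242 raised the mRNA of 11 of the 43 genes on polysomes and lowered that of 1. In all, 27.9% of the members were called there, beside 13.4% of all genes (6.81% higher and 6.55% lower). Nearly all members are well expressed (42 of 43 lie at or above the median level), and among the 9888 genes at or above that level 22.7% were called, 10.6% higher and 12.2% lower. The members' total is near that share, with 25.6% higher and 2.33% lower. In cytosolic RNA 12 members rose and 5 fell, 39.5% of the list, beside 16.5% of all genes (8.54% higher and 7.91% lower) and 27.0% of the genes at or above the median level (12.9% higher and 14.1% lower). The median effect over the 43 genes was 0.13 on polysomes and 0.18 in cytosolic RNA, and over all genes it was -0.005 and 0.04. A fit that blocks on the replicate number changed the polysome counts to 14 higher and 3 lower, beside 20.3% of all genes called, and the cytosolic counts to 14 higher and 5 lower, beside 24.9% of all genes.

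Both pools called 10 members, all in the same direction: PIK3C3, ATG14, ATG2A, WIPI1, WDR45, SQSTM1, OPTN, TAX1BP1 and EPG5 rose, and PIK3R4 fell. A further 2 passed on polysomes alone, 7 in cytosolic RNA alone and 24 in neither. The sign was shared by 36 of 43 members, and across the 43 genes the effects in both pools correlated at Pearson r = 0.824, a description over genes whose cytosolic and polysome arrays carry the same replicate numbers. The same figures over all genes are not given here, so this agreement between pools is not shown to be particular to the members. By role, 3 of 5 cargo receptors rose in each pool, 3 of 9 membrane genes rose on polysomes and 4 of 9 in cytosolic RNA, and 3 of the 5 cytosolic falls were conjugation enzymes; differences between roles were not tested.

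**Figure D1:**
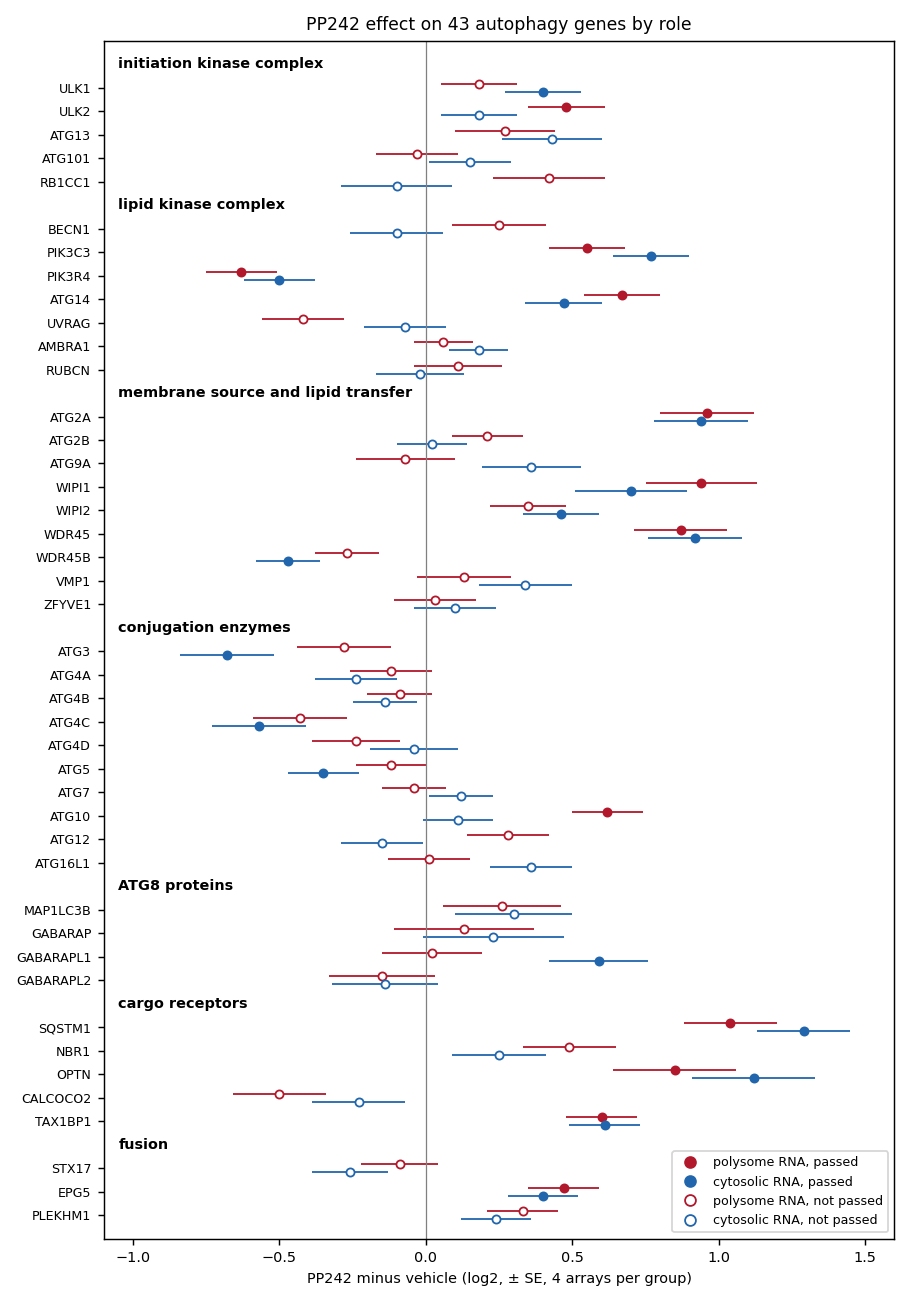
Effect of PP242 on each of the 43 genes (horizontal axis, log2 difference of PP242 minus vehicle, bars ± SE, 4 arrays per group), grouped by role, in polysome RNA (red) and cytosolic RNA (blue). Filled points passed an adjusted p of 0.05; SQSTM1 lies highest in both pools at 1.04 and 1.29, and PIK3R4 is the member that fell in both, at -0.63 and -0.50.

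Among the cargo receptors 3 of 5 rose in each pool. SQSTM1, the receptor that gathers ubiquitinated proteins into condensates and is itself degraded with them, read 10.25, 10.39, 9.71 and 10.00 on the PP242 polysome arrays, against 9.13, 9.29, 8.86 and 8.91 on the vehicle polysome arrays. In cytosolic RNA it read 10.15, 10.57, 9.79 and 10.16 with PP242, against 8.87, 8.92, 8.83 and 8.89 with vehicle. Every PP242 array lay above every vehicle array of its pool. The rise was 1.04 ± 0.16 on polysomes (2.06-fold, adjusted p = 0.000172) and 1.29 ± 0.16 in cytosolic RNA (2.45-fold, adjusted p = 1.64e-05). All 4 SQSTM1 probe sets above the median level rose in value, but by different amounts, 0.46 to 1.04 on polysomes and 0.21 to 1.29 in cytosolic RNA. Averaged over all of its probe sets the gene kept both calls at smaller effects, 0.66 and 0.64.

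OPTN, a receptor for damaged mitochondria and intracellular bacteria, read 9.53, 9.72, 9.20 and 9.25 on PP242 polysome arrays, against 8.58, 9.08, 8.25 and 8.40 on vehicle polysome arrays. The cytosolic arrays gave 9.06, 9.41, 8.70 and 9.31 with PP242, against 8.32, 8.36, 7.60 and 7.72 with vehicle. Neither pool overlapped, although replicate 2 of the vehicle polysome arrays came close to the lowest PP242 arrays. OPTN rose by 0.85 ± 0.21 on polysomes (adjusted p = 0.00918) and by 1.12 ± 0.21 in cytosolic RNA (2.17-fold, adjusted p = 0.000962). The polysome call was lost without replicate 1 (adjusted p = 0.073).

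TAX1BP1, a receptor that works beside SQSTM1 and NBR1 on protein aggregates, read 11.20, 11.34, 11.27 and 11.25 on PP242 polysome arrays, against 10.59, 10.66, 10.76 and 10.63 on vehicle polysome arrays. In cytosolic RNA it read 10.62, 11.06, 10.68 and 11.19 with PP242, against 10.17, 10.25, 10.35 and 10.32 with vehicle. The groups did not overlap in either pool, and replicates 2 and 4 stood highest among the PP242 cytosolic arrays. The rise was 0.60 ± 0.12 on polysomes (adjusted p = 0.00148) and 0.61 ± 0.12 in cytosolic RNA (adjusted p = 0.00128). Its 3 probe sets disagreed in cytosolic RNA, where the effects ran from -0.51 to 0.61, and the mean over them did not pass there. Without PP242 cytosolic arrays 2 and 4 the cytosolic effect of TAX1BP1 was 0.38 (adjusted p = 0.0141).

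The remaining receptors did not pass either test, and they pointed opposite ways. NBR1, which shares the ubiquitin and ATG8 binding of SQSTM1, read 9.64, 9.84, 9.47 and 9.53 on PP242 polysome arrays, against 9.19, 9.58, 9.01 and 8.74 on vehicle polysome arrays, an effect of 0.49 ± 0.16 (adjusted p = 0.0507). CALCOCO2, the receptor known as NDP52 that targets bacteria and mitochondria, read 8.43, 8.64, 8.04 and 8.18 with PP242, against 8.82, 9.19, 8.63 and 8.64 with vehicle, an effect of -0.50 ± 0.16 (adjusted p = 0.0501). For NBR1 all 4 same-numbered pairs of polysome arrays were higher with PP242, and for CALCOCO2 all 4 were lower. When replicate numbers entered the fit as a block, both passed on polysomes, NBR1 higher at an adjusted p of 0.00422 and CALCOCO2 lower at 0.00149. The cytosolic effects, 0.25 ± 0.16 for NBR1 and -0.23 ± 0.16 for CALCOCO2, passed in neither fit. On polysomes the second NBR1 probe set (mean 6.55) gave 0.51. The CALCOCO2 probe sets with means of 5.88 and 5.31 gave 0.07 and -0.10, so its lower value is seen mainly through its brightest probe set.

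**Figure D2:**
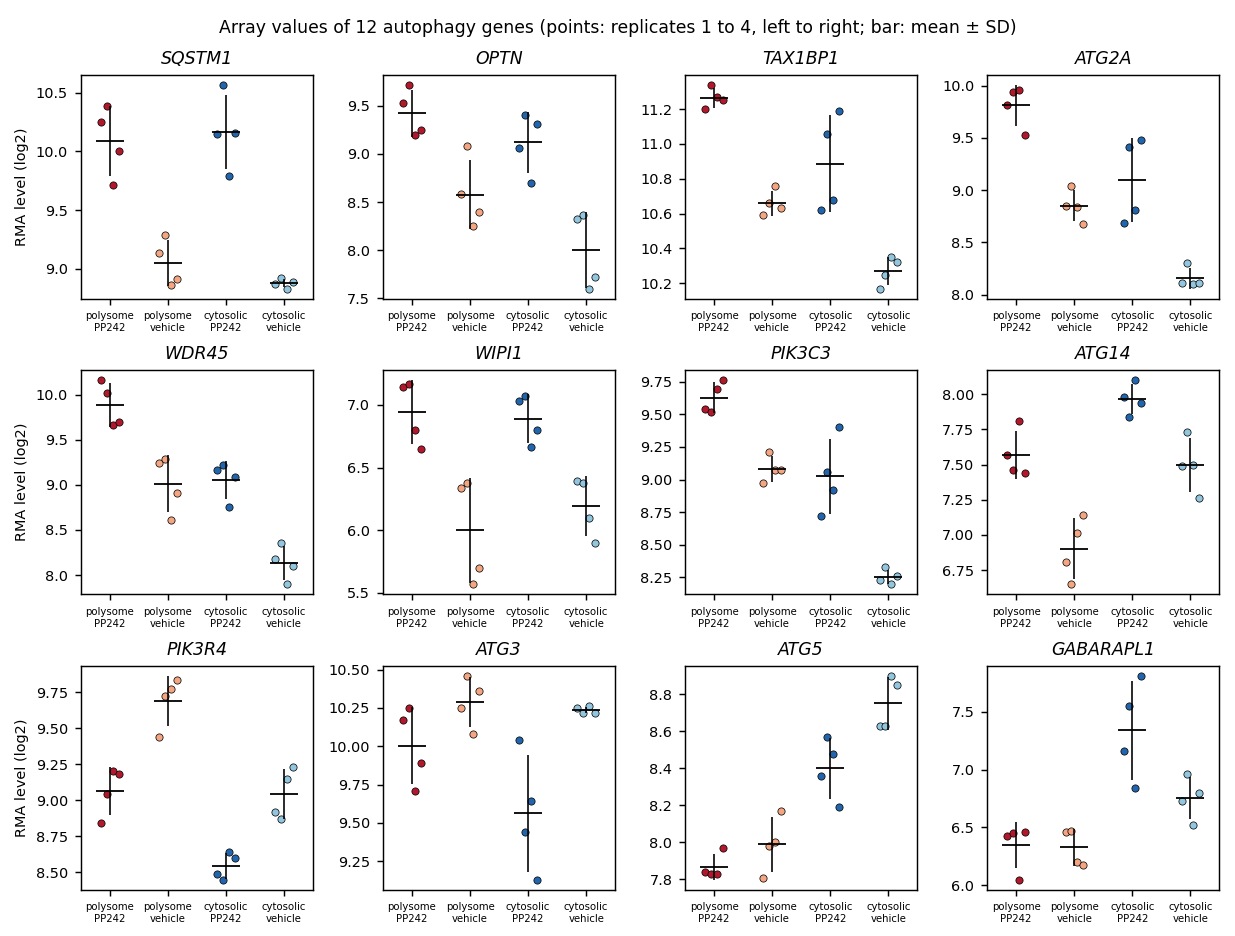
Log2 RMA level of 12 members on each of the 16 arrays, with PP242 left of vehicle in each pool; points are replicates 1 to 4 from left to right, and bars show the mean ± SD. SQSTM1 sits at 9.71 or above on all PP242 arrays of both pools and at 9.29 or below on all vehicle arrays, PIK3R4 is lower with PP242 within each pool, and each panel has its own axis.

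Among the membrane and lipid transfer genes, 3 of 9 rose on polysomes and 4 of 9 in cytosolic RNA, where 1 fell. ATG2A, which moves lipids from the endoplasmic reticulum into the growing membrane, read 9.81, 9.94, 9.96 and 9.53 on PP242 polysome arrays, against 8.85, 9.04, 8.84 and 8.68 on vehicle polysome arrays. Its cytosolic values were 8.69, 9.41, 8.81 and 9.48 with PP242, against 8.11, 8.30, 8.10 and 8.11 with vehicle. All PP242 arrays stood above all vehicle arrays of the same pool, and replicates 2 and 4 stood highest among the PP242 cytosolic arrays. ATG2A rose by 0.96 ± 0.16 on polysomes (1.94-fold, adjusted p = 0.000414) and by 0.94 ± 0.16 in cytosolic RNA (1.92-fold, adjusted p = 0.000466). Its cytosolic effect was 0.59 (adjusted p = 0.00851) without PP242 cytosolic arrays 2 and 4. Its paralog ATG2B, with the same activity, showed 0.21 ± 0.12 on polysomes (95% interval -0.04 to 0.47) and 0.02 ± 0.12 in cytosolic RNA (-0.24 to 0.27), and passed in neither. A difference between the paralogs was not tested.

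The WIPI proteins bind phosphatidylinositol 3-phosphate and bring ATG2 or ATG16L1 to the membrane. WIPI1 read 7.14, 7.17, 6.80 and 6.65 on PP242 polysome arrays, against 6.34, 6.38, 5.57 and 5.70 on vehicle polysome arrays. In cytosolic RNA WIPI1 read 7.03, 7.07, 6.66 and 6.80 with PP242, against 6.39, 6.38, 6.10 and 5.90 with vehicle. Replicates 1 and 2 were higher than 3 and 4 in every group, and the groups still did not overlap. WIPI1 rose by 0.94 ± 0.19 on polysomes (1.92-fold, adjusted p = 0.00158) and by 0.70 ± 0.19 in cytosolic RNA (adjusted p = 0.0138). The cytosolic call was lost without replicate 2 or 4 (adjusted p up to 0.0795) and without PP242 cytosolic arrays 2 and 4, where the effect was 0.65 (adjusted p = 0.098).

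WDR45, the WIPI family member whose loss causes a neurodegeneration with iron accumulation, read 10.16, 10.02, 9.66 and 9.70 on PP242 polysome arrays, against 9.24, 9.29, 8.61 and 8.91 on vehicle polysome arrays. The cytosolic readings were 9.17, 9.22, 8.75 and 9.09 with PP242, against 8.18, 8.36, 7.90 and 8.10 with vehicle. The PP242 and vehicle arrays were separated in both pools. WDR45 rose by 0.87 ± 0.16 on polysomes (1.83-fold, adjusted p = 0.00107) and by 0.92 ± 0.16 in cytosolic RNA (1.90-fold, adjusted p = 0.000628), and both of its probe sets rose in value. Neither call was lost under any alternative that was run.

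WIPI2, which recruits ATG16L1, read 9.80, 10.21, 9.66 and 10.32 on PP242 cytosolic arrays, against 9.55, 9.64, 9.48 and 9.50 on vehicle cytosolic arrays. It rose there by 0.46 ± 0.13 (adjusted p = 0.018), with replicates 2 and 4 well above the other PP242 arrays. Without PP242 cytosolic arrays 2 and 4 the effect was 0.19 (adjusted p = 0.292), and the call was also lost without replicate 2 or 4 alone and with all 5 probe sets averaged. On polysomes WIPI2 read 10.69, 10.68, 10.68 and 10.63 with PP242, against 10.43, 10.36, 10.23 and 10.28 with vehicle, an effect of 0.35 ± 0.13. All PP242 polysome arrays were higher than all vehicle polysome arrays; the adjusted p was 0.0833, and 0.0369 with the replicate block.

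WDR45B, the closest relative of WDR45, pointed the other way. It read 9.71, 9.55, 9.49 and 9.37 on PP242 cytosolic arrays, against 9.97, 9.98, 10.04 and 10.01 on vehicle cytosolic arrays, with no overlap, and fell by 0.47 ± 0.11 (adjusted p = 0.00571). On polysomes the effect was -0.27 ± 0.11 (adjusted p = 0.128). ATG9A, the scramblase carried by the vesicles that seed the membrane, showed -0.07 ± 0.17 on polysomes and 0.36 ± 0.17 in cytosolic RNA and passed in neither. ZFYVE1, a protein of the omegasome from which the membrane grows, showed 0.03 ± 0.14 and 0.10 ± 0.14. VMP1, a scramblase of the endoplasmic reticulum, could be read only through a dim probe set (mean 3.69), because the array's gene table lists its 3 other probe sets under both MIR21, a microRNA gene, and VMP1, and it passed in neither pool.

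In the lipid kinase complexes the catalytic subunit and its regulatory partner moved in opposite directions. PIK3C3, the kinase itself, read 9.54, 9.52, 9.69 and 9.76 on PP242 polysome arrays, against 8.97, 9.21, 9.07 and 9.07 on vehicle polysome arrays. In cytosolic RNA PIK3C3 read 8.72, 9.06, 8.92 and 9.40 with PP242, against 8.23, 8.33, 8.20 and 8.26 with vehicle. The PP242 arrays were above the vehicle arrays throughout. PIK3C3 rose by 0.55 ± 0.13 on polysomes (adjusted p = 0.00591) and by 0.77 ± 0.13 in cytosolic RNA (1.71-fold, adjusted p = 0.000309). Of its 2 probe sets above the median level, the other gave 0.20 on polysomes and -0.07 in cytosolic RNA. Averaged over its 7 probe sets, PIK3C3 showed 0.19 on polysomes (adjusted p = 0.117) and 0.23 in cytosolic RNA (adjusted p = 0.0418).

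PIK3R4, the pseudokinase that holds PIK3C3 on membranes, read 8.84, 9.04, 9.20 and 9.18 on PP242 polysome arrays, against 9.44, 9.72, 9.77 and 9.83 on vehicle polysome arrays. Its cytosolic values were 8.49, 8.45, 8.64 and 8.60 with PP242, against 8.92, 8.87, 9.15 and 9.23 with vehicle. Every PP242 array lay below every vehicle array of its pool. PIK3R4 fell by 0.63 ± 0.12 on polysomes (1.54-fold lower, adjusted p = 0.00155) and by 0.50 ± 0.12 in cytosolic RNA (1.41-fold lower, adjusted p = 0.00859). The cytosolic call was lost without replicate 2 or 4 (adjusted p up to 0.0727). Both of its other probe sets are dim (means 2.79 and 2.64), and with them averaged in, the effects were -0.29 and -0.09 and neither passed.

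ATG14, the subunit that directs the complex to autophagosome formation, read 7.57, 7.46, 7.81 and 7.44 on PP242 polysome arrays, against 6.81, 6.65, 7.01 and 7.14 on vehicle polysome arrays. The cytosolic arrays gave 7.98, 7.84, 8.10 and 7.94 with PP242, against 7.49, 7.73, 7.50 and 7.26 with vehicle. ATG14 was higher on all PP242 arrays of both pools, with vehicle cytosolic replicate 2 closest to them. It rose by 0.67 ± 0.13 on polysomes (adjusted p = 0.00169) and by 0.47 ± 0.13 in cytosolic RNA (adjusted p = 0.0194), and the cytosolic call was lost without replicate 1, 3 or 4 (adjusted p up to 0.119).

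UVRAG, which takes the place of ATG14 in an endosomal form of the complex, read 5.83, 5.90, 5.68 and 5.79 on PP242 polysome arrays, against 6.02, 6.08, 6.56 and 6.23 on vehicle polysome arrays. The groups were separated, with an effect of -0.42 ± 0.14 (adjusted p = 0.0592, and 0.0338 with the replicate block). In cytosolic RNA UVRAG showed -0.07 ± 0.14. BECN1, the scaffold of both forms, showed 0.25 ± 0.16 on polysomes and -0.10 ± 0.16 in cytosolic RNA, AMBRA1, which regulates BECN1, 0.06 ± 0.10 and 0.18 ± 0.10, and RUBCN, an inhibitor of the UVRAG form, 0.11 ± 0.15 and -0.02 ± 0.15. None of these 3 passed in either pool. A second AMBRA1 probe set, nearly as bright (mean 8.44, against 8.77), gave 0.23 on polysomes and -0.43 in cytosolic RNA, so its probe sets disagree there. For BECN1 too a second probe set (mean 8.18, against 8.29) disagreed in cytosolic RNA, with 0.20 on polysomes and 0.18 in cytosolic RNA.

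Promoters were read for 37 of the 43 genes, 48 promoters in all, from RefSeq (GRCh38.p14). The 250 bases before each start were searched on both strands for CACGTG, the core of the element that TFEB and TFE3 bind. It was found in 2 of the 48 promoters (4.17%), beside 6.34% of 35116 promoters of all genes. One belongs to ATG14, which rose in both pools, and the other to ATG3, which fell in cytosolic RNA. These are shown beside SQSTM1, the member that rose most, and PIK3R4, the member that fell in both pools. Each line gives the 60 bases before the most upstream start, 5′ to 3′ on the gene's strand, with the CACGTG element in capitals.
ATG14 (chr14:55411831-55411890, minus strand): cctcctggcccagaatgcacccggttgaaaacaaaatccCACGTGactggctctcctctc
ATG3 (chr3:112561963-112562022, minus strand): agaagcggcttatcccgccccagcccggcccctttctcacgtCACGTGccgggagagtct
SQSTM1 (chr5:179806333-179806392, plus strand): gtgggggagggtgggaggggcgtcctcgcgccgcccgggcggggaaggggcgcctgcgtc
PIK3R4 (chr3:130746830-130746889, minus strand): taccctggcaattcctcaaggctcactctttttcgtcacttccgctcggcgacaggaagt
The element begins 21 bases before the start in ATG14 and 18 bases before it in ATG3, and no searched motif was found in the SQSTM1 and PIK3R4 windows. The longer CLEAR form of the element, which contains CACGTG, was in 0 member promoters and in 0.308% of all promoters. For the other searched letters the member promoters and all promoters held 2.08% and 2.98% for GTAAACA (a FOXO site), 6.25% and 10.9% for TGACNNNGC (an antioxidant response core), 0% and 3.14% for TGATGNAA (bound by ATF4), 31.2% and 32.0% for CCAAT, 0% and 0.854% for TCACGTGA (a form of the E-box that contains CACGTG) and 4.17% and 4.07% for a start with C and 4 pyrimidines, as in TOP mRNAs, read on the gene's strand. These are counts of letters in a short window and say nothing of binding in these cells.

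In the initiation complex 1 of 5 genes passed in each pool, ULK2 on polysomes and ULK1 in cytosolic RNA. ULK1, the kinase that mTOR complex 1 restrains, read 6.72, 7.20, 6.81 and 7.34 on PP242 cytosolic arrays, against 6.56, 6.66, 6.65 and 6.60 on vehicle cytosolic arrays. It rose there by 0.40 ± 0.13 (adjusted p = 0.0461), mostly through replicates 2 and 4: without PP242 cytosolic arrays 2 and 4 the effect was 0.15 (adjusted p = 0.568). The call was also lost without replicate 1, 2 or 4 (adjusted p up to 0.283). On polysomes ULK1 showed 0.18 ± 0.13 and overlapped between treatments.

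ULK2, the partly redundant sister kinase, read 7.14, 7.23, 7.34 and 6.89 on PP242 polysome arrays, against 6.67, 6.81, 6.52 and 6.70 on vehicle polysome arrays. It rose there by 0.48 ± 0.13 (adjusted p = 0.0217) without overlap, and the 4 probe sets of the gene gave 0.48 to 0.83. The call was lost without replicate 1, 2 or 3 (adjusted p up to 0.2). In cytosolic RNA ULK2 showed 0.18 ± 0.13 and the groups overlapped.

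ATG13 and ATG101, the adaptors of the complex, did not pass in either pool. ATG13 showed 0.27 ± 0.17 on polysomes and 0.43 ± 0.17 in cytosolic RNA (adjusted p = 0.0903, and 0.0308 with the replicate block), where PP242 replicates 2 and 4 read 8.35 and 8.48 and replicate 3, at 7.46, lay below all vehicle arrays (7.55 to 7.79). ATG101 showed -0.03 ± 0.14 and 0.15 ± 0.14. RB1CC1, the large scaffold, read 9.17, 9.37, 8.86 and 9.03 on PP242 polysome arrays, against 8.75, 9.0, 8.43 and 8.58 on vehicle polysome arrays, an effect of 0.42 ± 0.19 (adjusted p = 0.177), while its cytosolic effect was -0.10 ± 0.19. In all 4 same-numbered pairs of polysome arrays RB1CC1 was higher with PP242.

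**Figure D3:**
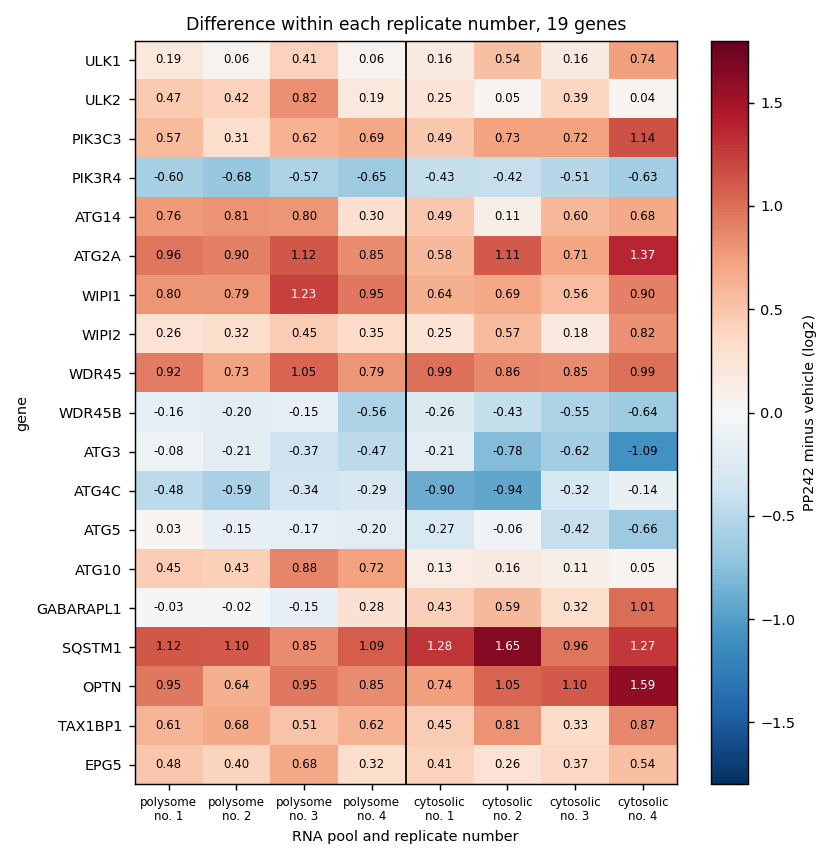
Difference of PP242 minus vehicle (log2, colour and printed value) within each same-numbered pair of arrays, for the 19 members called in either pool, with polysome pairs left of cytosolic pairs. Pairs 2 and 4 exceed pairs 1 and 3 for ULK1, WIPI2 and ATG2A in cytosolic RNA, and all 4 pairs of both pools have the same sign for SQSTM1 and PIK3R4.

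Of the 10 conjugation enzymes 3 fell and 0 rose in cytosolic RNA, while on polysomes 1 rose and 0 fell. ATG3, the conjugating enzyme that passes ATG8 proteins to phosphatidylethanolamine, read 10.04, 9.44, 9.64 and 9.13 on PP242 cytosolic arrays, against 10.25, 10.22, 10.26 and 10.22 on vehicle cytosolic arrays. All vehicle arrays were higher than all PP242 arrays, with replicate 4 lowest. ATG3 fell by 0.68 ± 0.16 (adjusted p = 0.00667) in cytosolic RNA, and its polysome effect was -0.28 ± 0.16 (adjusted p = 0.319). Without PP242 cytosolic arrays 2 and 4 the cytosolic effect was -0.40 (adjusted p = 0.131), and the call was also lost without replicate 2 or 4 alone.

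ATG4C, a protease that trims ATG8 proteins, read 6.08, 6.31, 6.71 and 6.88 on PP242 cytosolic arrays, against 6.98, 7.25, 7.03 and 7.02 on vehicle cytosolic arrays. It fell by 0.57 ± 0.16 (1.49-fold lower, adjusted p = 0.0195), with replicates 1 and 2 lowest. The call was lost without replicate 1 or 2 (adjusted p up to 0.2), and within replicates 3 and 4 alone the effect was -0.23 (adjusted p = 0.433). On polysomes ATG4C showed -0.43 ± 0.16 (adjusted p = 0.0978).

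ATG5, which forms a conjugate with ATG12 that directs ATG8 attachment, read 8.36, 8.57, 8.48 and 8.19 on PP242 cytosolic arrays, against 8.63, 8.63, 8.90 and 8.85 on vehicle cytosolic arrays. The groups were separated by a small margin, and ATG5 fell by 0.35 ± 0.12 (1.28-fold lower, adjusted p = 0.0443). That call was lost whichever replicate was left out (adjusted p up to 0.289), and without PP242 cytosolic arrays 2 and 4, where the effect was -0.33 (adjusted p = 0.11). It held with all 3 probe sets averaged (-0.43, limma adjusted p = 0.0172), and each of them was lower in value (-0.48 to -0.35). The polysome effect was -0.12 ± 0.12, with overlapping groups.

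ATG10, the conjugating enzyme that joins ATG12 to ATG5, was the enzyme that rose on polysomes. It read 7.01, 6.95, 6.91 and 6.87 on PP242 polysome arrays, against 6.56, 6.52, 6.03 and 6.15 on vehicle polysome arrays, and rose by 0.62 ± 0.12 (1.54-fold, adjusted p = 0.00191) without overlap. In cytosolic RNA ATG10 showed 0.11 ± 0.12. Its 3 dimmer probe sets gave -0.03 to 0.09 on polysomes, so the rise is seen through 1 of 4 probe sets, and the mean over all 4 did not pass.

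The remaining enzymes did not pass in either pool. ATG12 showed 0.28 ± 0.14 on polysomes and -0.15 ± 0.14 in cytosolic RNA, and ATG16L1, which places the ATG12 and ATG5 conjugate on the membrane, 0.01 ± 0.14 and 0.36 ± 0.14. With the replicate block the cytosolic adjusted p of ATG16L1 was 0.0295, against 0.0891 without it. ATG7, the activating enzyme of both conjugation systems, showed -0.04 ± 0.11 and 0.12 ± 0.11. The proteases ATG4A, ATG4B and ATG4D had polysome effects of -0.12 ± 0.14, -0.09 ± 0.11 and -0.24 ± 0.15, and cytosolic effects of -0.24 ± 0.14, -0.14 ± 0.11 and -0.04 ± 0.15. The other ATG4B probe sets (means 8.45 and 6.49) pointed the other way in cytosolic RNA, at 0.14 and 0.32. The median over the 10 enzymes was -0.10 on polysomes and -0.14 in cytosolic RNA.

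The ATG8 genes, whose proteins are the substrates of that machinery, gave no call on polysomes and 1 in cytosolic RNA. MAP1LC3B, the gene of the most used autophagosome marker, read 9.46, 9.37, 8.50 and 9.20 on PP242 polysome arrays, against 9.08, 8.97, 8.66 and 8.78 on vehicle polysome arrays. Replicate 3 went against the other replicates and lay below all vehicle arrays, and the effect was 0.26 ± 0.20 (95% interval -0.16 to 0.68). In cytosolic RNA the effect was 0.30 ± 0.20 (-0.11 to 0.72), again with replicate 3, at 9.21, below its vehicle partner at 9.29. GABARAP showed 0.13 ± 0.24 on polysomes (-0.37 to 0.63) and 0.23 ± 0.24 in cytosolic RNA (-0.27 to 0.72), and GABARAPL2 -0.15 ± 0.18 (-0.53 to 0.22) and -0.14 ± 0.18 (-0.52 to 0.24). The intervals of MAP1LC3B and GABARAP leave room for rises of about the size called in some other members. Those of GABARAPL2 end at 0.22 and 0.24, below every rise called in the same pool. Its cytosolic interval leaves room for a fall of the size called for ATG5 (-0.35).

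GABARAPL1, a close relative of GABARAP, read 7.16, 7.55, 6.84 and 7.81 on PP242 cytosolic arrays, against 6.73, 6.96, 6.52 and 6.80 on vehicle cytosolic arrays. It rose there by 0.59 ± 0.17 (1.5-fold, adjusted p = 0.0252), although PP242 replicate 3 lay below vehicle replicate 2. Without PP242 cytosolic arrays 2 and 4 the effect was 0.25 (adjusted p = 0.43), and the call was also lost without replicate 1, 2 or 4 alone and with both probe sets averaged. On polysomes it read 6.43, 6.45, 6.05 and 6.46 with PP242, against 6.46, 6.47, 6.20 and 6.18 with vehicle, an effect of 0.02 ± 0.17. The second probe set of GABARAPL1, dimmer at a mean of 5.31, gave 0.57 on polysomes and 0.52 in cytosolic RNA, so the probe sets disagree on the polysome effect.

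Of the fusion factors EPG5 rose in both pools. EPG5, a tether between autophagosome and lysosome, read 7.21, 7.37, 7.67 and 7.38 on PP242 polysome arrays, against 6.73, 6.97, 6.99 and 7.06 on vehicle polysome arrays. In cytosolic RNA EPG5 read 7.56, 7.54, 7.44 and 7.57 with PP242, against 7.15, 7.28, 7.07 and 7.03 with vehicle. No group overlapped its control, and the rise was 0.47 ± 0.12 on polysomes (adjusted p = 0.00917) and 0.40 ± 0.12 in cytosolic RNA (adjusted p = 0.0244). The polysome call was lost without replicate 2 or 3 (adjusted p up to 0.0713), and the cytosolic call without replicate 1, 2 or 4 (up to 0.172). The cytosolic effect was 0.37 (adjusted p = 0.111) without PP242 cytosolic arrays 2 and 4, and with all 7 of its probe sets averaged, EPG5 passed in neither pool. PLEKHM1, an adaptor that links ATG8 proteins to the fusion machinery, showed 0.33 ± 0.12 on polysomes (adjusted p = 0.0931, and 0.0241 with the replicate block) and 0.24 ± 0.12 in cytosolic RNA. STX17, the SNARE of the completed autophagosome, showed -0.09 ± 0.13 and -0.26 ± 0.13.

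Whether PP242 moved these mRNAs on or off polysomes beyond their change in cytosolic RNA was tested as the difference of both effects, polysome minus cytosolic. No member passed, and 0.0% of all 19775 genes did (0 genes), although 1750 genes and 3 members had an unadjusted p under 0.05. The smallest adjusted p among the members was 0.558, and 0.258 with the replicate block and 0.208 with each combination of treatment and replicate number as a block, fits in which 0 genes passed as well. The 43 differences ran from -0.57 to 0.52 with a median of -0.01, and their standard errors were 0.14 to 0.34, so shifts of this size could not be separated from the spread. The members with an unadjusted p under 0.05 were GABARAPL1 (-0.57 ± 0.24, 95% interval -1.08 to -0.05), ATG10 (0.51 ± 0.18, 0.14 to 0.88) and ATG12 (0.43 ± 0.19, 0.03 to 0.84). For GABARAPL1 and ATG10 the probe sets of the gene disagreed, as given above. Those of ATG12 disagreed on polysomes as well. Its next brightest probe set (mean 6.72) gave -0.28 on polysomes and -0.23 in cytosolic RNA, against 0.28 and -0.15 for the chosen probe set. For SQSTM1 the difference was -0.25 ± 0.23 (-0.73 to 0.23), and for ATG2A it was 0.02 ± 0.23 (-0.47 to 0.50).

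**Figure D4:**
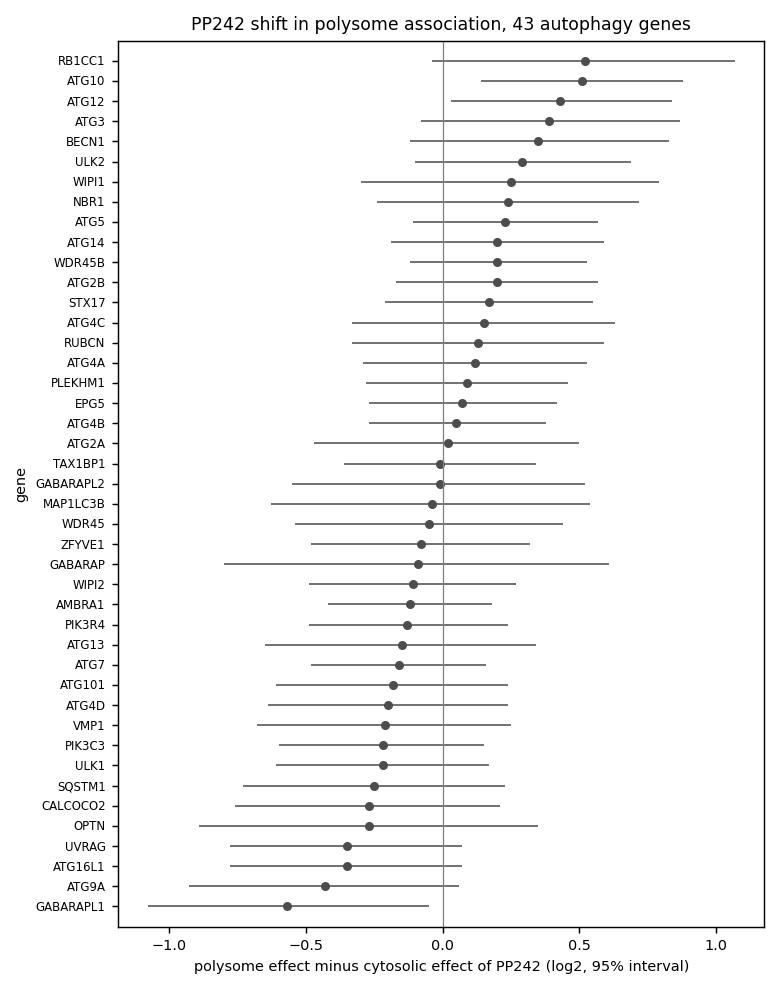
Polysome effect minus cytosolic effect of PP242 (horizontal axis, log2, with the 95% interval from limma) for the 43 genes, in order of size. The values run from 0.52 for RB1CC1 to -0.57 for GABARAPL1, and the intervals of ATG10, ATG12 and GABARAPL1 leave out 0 before adjustment.

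How strongly each mRNA was represented on polysomes was described by the level on polysome arrays minus the level on cytosolic arrays, centred on the median of all genes. The pools look normalized apart from each other, with array medians of 4.57 to 4.63 in polysome and 5 to 5.05 in cytosolic RNA, so this difference depends on the scaling and is given without a test. Over the 43 members it ran from -1.05 to 1.36 with a median of 0.35 in PP242 cells, and from -0.82 to 1.32 with a median of 0.23 in vehicle cells. It was above 0 for 31 members with PP242 and for 30 with vehicle. These counts depend on the scaling too, and no share over all genes is given beside them. Under cyclic loess fewer members were above 0 with either treatment, and with vehicle they were no longer most of the list. That difference was not centred on the median of all genes, so its 0 is not the same point. ATG4B had the highest difference in both on this scale (1.36 with PP242, 1.32 with vehicle), and WDR45 (1.15 and 1.21), ATG101 (1.04 and 1.23) and ATG2A (1.03 and 1.03) were also high. These differences rest on the chosen probe sets. The ATG4B probe set with mean 6.49 averaged 6.54 on polysome and 6.59 on cytosolic arrays with PP242, and 6.55 and 6.27 with vehicle. The other WDR45 probe set averaged 8.02 and 7.92 with PP242, and 7.34 and 7.2 with vehicle. In these probe sets the gaps were much smaller than in the chosen ones. The ATG4B probe set with mean 8.45 kept a wide gap. VMP1 had the lowest difference on this scale (-1.05 and -0.82) through its dim probe set. ATG12 (-0.36 and -0.78) and ATG5 (-0.21 and -0.43), which form 1 conjugate, were both below 0. Through their chosen probe sets the 4 ATG8 genes lay between -0.67 and -0.07 with PP242 and between -0.25 and 0.00 with vehicle. The second GABARAPL1 probe set read higher on polysomes instead. It averaged 5.7 on polysome and 5.45 on cytosolic arrays with PP242, and 5.14 and 4.93 with vehicle. The second MAP1LC3B probe set read lower on polysomes, as the chosen one does. Under cyclic loess between all arrays ATG4B had 0.98 with PP242 and 0.88 with vehicle, where ATG101, at 0.89, was slightly higher, and ATG12, at -1.10, took the place of VMP1, at -0.82, as the lowest with vehicle.

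**Figure D5:**
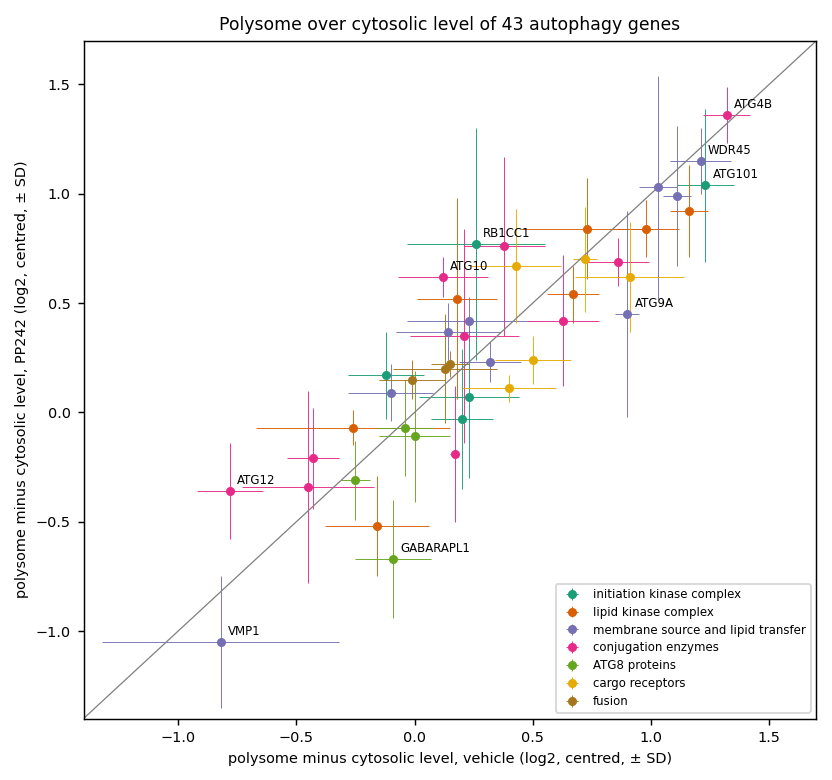
Polysome minus cytosolic level (log2, centred on the median of all genes) in PP242 cells (vertical axis) against vehicle cells (horizontal axis), 1 point per member coloured by role, bars ± SD over 4 replicate numbers; the diagonal marks equal values. The members spread along the diagonal from VMP1 (-1.05 with PP242, -0.82 with vehicle) to ATG4B (1.36 with PP242, 1.32 with vehicle).

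A second list of 50 other autophagy genes covered organelle receptors, regulators of initiation and nucleation, fusion and tethering factors and further ATG8 and conjugation genes. On polysomes 8 of the 50 rose and 1 fell, in cytosolic RNA 12 rose and 3 fell, and none passed for the difference of effects. That is 18.0% of them called on polysomes, beside 13.4% of all genes and 22.7% of genes at or above the median level, and 30.0% in cytosolic RNA, beside 16.5% and 27.0%, totals near those of expressed genes. By direction, 16.0% rose and 2.0% fell on polysomes, beside 10.6% and 12.2% of genes at or above the median level. In cytosolic RNA it was 24.0% and 6.0%, beside 12.9% and 14.1%. The list also holds genes below that level, such as FUNDC1 (mean 2.37). Their medians were 0.06 on polysomes and 0.21 in cytosolic RNA. RETREG1, a receptor for sheets of the endoplasmic reticulum, read 7.03, 7.02, 6.65 and 6.47 on PP242 polysome arrays, against 5.86, 6.09, 4.96 and 5.44 on vehicle polysome arrays, and rose by 1.21 ± 0.25 there (2.31-fold, adjusted p = 0.00232) and by 1.12 ± 0.25 in cytosolic RNA (adjusted p = 0.00398). The cytosolic call of RETREG1 was lost without replicate 4 (adjusted p = 0.0528) and without PP242 cytosolic arrays 2 and 4 (0.89, adjusted p = 0.076), and averaged over its probe sets both effects were smaller, 0.52 and 0.60. RTN3, a receptor for tubules of the endoplasmic reticulum, read 10.22, 10.07, 10.27 and 10.32 with PP242, against 10.88, 11.03, 10.82 and 10.93 with vehicle, and fell by 0.69 ± 0.10 on polysomes (1.62-fold lower, adjusted p = 8.93e-05) and by 0.35 ± 0.10 in cytosolic RNA (adjusted p = 0.02). The cytosolic call of RTN3 was lost without replicate 1, 2 or 3 (adjusted p up to 0.13) and with its probe sets averaged (-0.22, adjusted p = 0.107). On polysomes these receptors of the same organelle moved in opposite directions, with no overlap between treatments for either.

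DRAM1, a lysosomal membrane protein that promotes autophagy, rose by 0.57 ± 0.14 on polysomes (adjusted p = 0.0104) and by 0.68 ± 0.14 in cytosolic RNA (adjusted p = 0.00259). VPS41, a subunit of the HOPS tethering complex, rose by 0.48 ± 0.15 (adjusted p = 0.0377) and by 0.68 ± 0.15 (adjusted p = 0.00352). The polysome call of DRAM1 was lost without replicate 3 (adjusted p = 0.114). For VPS41 the polysome call was lost without replicate 1, 3 or 4 (adjusted p up to 0.16), and the cytosolic call without replicate 4 (0.0668) and without PP242 cytosolic arrays 2 and 4 (0.38, adjusted p = 0.0733). Averaged over its probe sets VPS41 passed in neither pool, at 0.28 and -0.08. PRKAA1, a catalytic subunit of the energy sensor AMPK, fell by 0.57 ± 0.16 in cytosolic RNA (adjusted p = 0.0166) with overlapping groups, and showed -0.05 ± 0.16 on polysomes. The PRKAA1 call was lost without replicate 1, 2 or 4 (adjusted p up to 0.176), without PP242 cytosolic arrays 2 and 4 (-0.35, adjusted p = 0.216) and with its probe sets averaged (-0.15).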

How the data were processed

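RNA was measured on 16 Affymetrix 3′ arrays. Per the submitters' processing notes the values were made by RMA (version not stated), and the deposited table holds them as log2 intensities from 1.65 to 14.61 for 54613 probe sets; every array column was matched to a sample. How the arrays were normalized is not stated.

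Of the probe sets 41091 list 1 gene and were used, 1801 list several and 11721 are not in the gene table; 41037 were named through RefSeq and 54 keep the table's name. The brightest probe set stands for each of 19775 genes; 30 members have more than 1. limma 3.58.1 in R 4.3.3 fitted 1 mean per group over all 16 arrays, with an intensity trend, two-sided tests and Benjamini-Hochberg adjustment over all genes. Contrasts were PP242 minus vehicle in each pool and the difference of both. The fit was tested on simulated data. Array number limits the precision.

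The members, lists, alternatives and tests were chosen with earlier results of these data known. All 43 members are named, and of 50 other autophagy genes the 2 called ones with the smallest adjusted p per contrast and direction; the ATG3 promoter is shown outside the rule for promoters (members called alike in both pools), because it holds the E-box, and the others under that rule are not printed. For pairing, each array's deviation from its group mean was correlated with that of the same-numbered array of another group; in 16 of 16 such pairs from groups that were compared, r was over 0.1 (0.164 to 0.51). Over all groups it was 23 of 24 (lowest 0.0265, vehicle polysome with PP242 cytosolic, number 4). Different numbers within 1 and 2 or within 3 and 4 also correlated (-0.0469 to 0.447, median 0.251). The number was used as a pairing in the same-numbered differences and in the fit with a block, an alternative. The main fit, which gave the calls unless an alternative is named, leaves the pairing out. More members passed with the block, so a member that did not pass in the main fit may pass there. Other alternatives were each replicate left out, replicates 1 and 2 or 3 and 4 alone, PP242 cytosolic arrays 2 and 4 left out, arrays of 1 pool, all probe sets averaged, genes at or above the median level, other scalings and array weights.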

Additional observations from a re-analysis of the deposited data

Results flagged for a closer look

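Of 172 groups of 4 arrays checked over the 43 members, 6 held an array far from the other 3 by Dixon's test at the 95% level; chance alone flags about 1 in 20 groups. In PP242 polysome RNA these were WIPI2 on array 4 (10.63, the others 10.68 to 10.69), ATG5 on array 4 (7.97, the others 7.83 to 7.84) and GABARAPL1 on array 3 (6.05, the others 6.43 to 6.46). In PP242 cytosolic RNA they were RUBCN on array 2 (8.08, the others 8.13 to 8.14) and ATG12 on array 3 (8.71, the others 8.06 to 8.13). In vehicle cytosolic RNA it was ATG2A on array 2 (8.30, the others 8.10 to 8.11). The gaps of WIPI2, RUBCN and ATG5 are small in size and stand out because the other 3 arrays lie within a few hundredths. Without replicate 2 both ATG2A calls held, and without replicate 3 GABARAPL1 still did not pass on polysomes.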

How the results depend on the processing

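Over 15 alternatives, 1803 values of the 129 member effects were recomputed: 1680 kept their side of the threshold, 84 lost a call, 39 gained one and 0 called effects changed sign; 91 uncalled values changed sign. Of 29 calls, 16 held with each replicate left out and 9 under every alternative run: SQSTM1, ATG2A and WDR45 in both pools, WIPI1 on polysomes, and PIK3C3 and OPTN in cytosolic RNA. Leaving out 1 replicate number gave 9 to 11 polysome rises and 1 to 1 falls, and 6 to 13 cytosolic rises and 1 to 4 falls; cytosolic rises and falls were 7 and 1 without replicate 2, 6 and 2 without replicate 4, and falls were 3 without replicate 1. Without PP242 cytosolic arrays 2 and 4 there were 7 cytosolic rises and 3 falls, and 3 polysome falls. Replicates 1 and 2 alone gave 7 cytosolic rises, 1 cytosolic fall and 2 polysome falls; replicates 3 and 4 alone gave 6 rises in each pool and 1 cytosolic fall. Fewer arrays enter these fits. With the replicate number as a block, polysome rises were 14 and falls 3, cytosolic rises 14 and falls 5, and over all genes 4013 and 4929 were called, against 2641 and 3253 without it; it ended no member's call. Arrays of 1 pool alone gave 12 polysome rises and 2 falls, and 9 cytosolic rises and 3 falls. Polysome falls were also 3 with only genes at or above the median level, 2 with cyclic loess, 2 with quantile normalization within each pool and 4 with array weights. The cause of these moves was not tested. For polysome association 0 members passed in every fit (3 had an unadjusted p under 0.05). The polysome over cytosolic level moved by over 1 SD for 30 of 43 members under cyclic loess, which was not centred. It did so for 41 when the main values were left uncentred, a change that shifts all members alike.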

Other observations

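Among the other autophagy genes RAB7A, the small GTPase of late endosomes and lysosomes, spread widely in cytosolic RNA and was chosen after its values were seen. It read 9.72, 7.61, 9.13 and 7.23 on PP242 cytosolic arrays, against 9.73, 9.66, 9.58 and 9.40 on vehicle cytosolic arrays. The fall of 1.17 ± 0.36 (limma, adjusted p = 0.032) thus lay mainly in PP242 arrays 2 and 4, which are also the arrays with the lowest weights. On polysomes RAB7A read 9.72, 10.12, 9.69 and 9.83 with PP242, against 9.80, 9.82, 9.43 and 9.59 with vehicle, an effect of 0.18 ± 0.36. The cytosolic effect was -0.17 (adjusted p = 0.68) without PP242 cytosolic arrays 2 and 4, and averaged over its probe sets it was -0.18 (adjusted p = 0.202). The call was also lost without replicate 2 or 4 alone (adjusted p up to 0.254).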
